A study of Homo sapiens with 6 samples.

Results

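The interleukin 1 (IL1) family genes examined here were 10 genes chosen by symbol: the ligands IL1A, IL1B, IL18 and IL33, the receptor antagonist IL1RN, the receptor chains IL1R1, IL1RAP and IL1R2, and the receptor-associated kinases IRAK1 and IRAK2. All 10 were present among the 23228 genes of the count tables. They were measured in RL95-2, an established human endometrial carcinoma cell line, by stranded poly(A) RNA-seq. The control group was 3 cultures kept for 24 h in serum-free RPMI mixed with an equal volume of DMEM, and the ADP-CM group was 3 cultures kept for 24 h in serum-free RPMI mixed with an equal volume of ADP-CM. ADP-CM is DMEM conditioned by mature adipocytes isolated from human visceral fat and then passed through a filter, so the treated cultures received the medium and not the adipocytes. The study took the fat from female patients with a high body mass index, and no medium from leaner donors was compared. No gene was deleted or introduced in either group, and the comparison rests on 1 cell line. The number of fat donors behind the medium, and whether the 3 replicates of a group were grown separately, is not given in the sources used here, so p-values measure the spread between these libraries only, which may be technical.

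IL1 alpha and IL1 beta, encoded by IL1A and IL1B, are ligands of one receptor. The ligand binds the IL1R1 chain, the accessory chain IL1RAP joins, and the complex recruits the adaptor MYD88 and kinases of the IRAK family, which leads to NF-kB and MAP kinase activity. IL1RN encodes a protein that occupies IL1R1 without signalling, and IL1R2 encodes a decoy receptor that binds ligand but lacks the signalling domain. IL18 and IL33 are related ligands with receptors of their own. IL1 alpha is made by many epithelial cells and is active in its precursor form, whereas IL1 beta and IL18 are activated by caspase-1 within inflammasomes.

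ADP-CM raised IL1A 2.37-fold, IL18 1.51-fold and IRAK1 1.14-fold, and it lowered the decoy receptor IL1R2 to 0.497 of its control level. The signalling receptor chains IL1R1 and IL1RAP and the antagonist IL1RN did not pass the test. IL1B, IL33 and IRAK2 had at most 19 reads in any library and did not pass either. Of the 10 genes, 8 passed the filter on low counts of edgeR and were tested, and 4 of these 8 passed an adjusted p-value of 0.01, 3 higher and 1 lower. Over all 12663 tested genes the share called at that limit was 26.5%, with 13.5% higher and 13% lower. With the 1.5-fold limit of the study added, IL1A and IL18 remained among the higher genes and IL1R2 among the lower, where 2.27% of all tested genes passed, 1.14% in each direction. The IL1R2 call was lost with DESeq2 (adjusted p-value 0.0151) and when the second control library was left out (0.0241 by edgeR), and IL18 dropped under 1.5-fold when the third control or the third ADP-CM library was left out. The normalized values of the groups did not overlap for 5 of the 8 tested genes, against 45.5% of all tested genes. The 5 include IL1RN, which passed the filter through its control libraries alone, so its separation carries little weight.

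The 300 bases around the annotated start site (250 before it and 50 from it on) are shown for the called genes with an entry in the RefSeq promoter table, because these are the genes whose RNA differed between the groups. IL18, the other called gene, had no entry. Sequences are those of RefSeq, and they were located by exact match on GRCh37, the build of the authors' alignment (hg19). Capitals mark matches to any of the following motifs: the NF-kB site kappaB by its 10-letter consensus, the AP-1 site TGANTCA, the STAT site TTCNNNGAA (these on both strands) and the TATA box TATAAA on the sense strand. No marked matches overlapped each other.
IL1A, chr2:113542021-113542320, minus strand, 2 AP-1 matches and 1 TATA match: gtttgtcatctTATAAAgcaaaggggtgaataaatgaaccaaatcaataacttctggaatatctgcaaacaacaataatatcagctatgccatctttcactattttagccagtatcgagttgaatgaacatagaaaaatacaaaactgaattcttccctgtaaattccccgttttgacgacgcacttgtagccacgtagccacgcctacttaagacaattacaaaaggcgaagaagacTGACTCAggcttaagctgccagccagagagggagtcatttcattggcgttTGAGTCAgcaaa
IL1R2, chr2:102608172-102608471, plus strand, 1 kappaB match and 1 TATA match: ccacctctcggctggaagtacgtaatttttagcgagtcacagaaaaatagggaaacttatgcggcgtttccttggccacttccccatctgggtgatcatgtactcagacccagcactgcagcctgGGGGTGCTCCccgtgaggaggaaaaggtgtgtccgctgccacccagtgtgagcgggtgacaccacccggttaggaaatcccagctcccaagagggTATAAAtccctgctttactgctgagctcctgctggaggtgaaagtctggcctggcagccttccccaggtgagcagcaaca
IRAK1, chrX:153285304-153285603, minus strand, 1 kappaB match and 1 AP-1 match: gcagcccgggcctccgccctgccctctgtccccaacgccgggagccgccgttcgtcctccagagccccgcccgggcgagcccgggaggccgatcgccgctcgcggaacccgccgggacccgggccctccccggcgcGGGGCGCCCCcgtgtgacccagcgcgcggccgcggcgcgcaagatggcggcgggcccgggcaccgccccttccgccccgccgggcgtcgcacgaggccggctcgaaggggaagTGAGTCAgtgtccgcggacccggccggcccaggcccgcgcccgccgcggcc
The AP-1 matches of IL1A lay at -12 to -6 and at 39 to 45 relative to the start site, and its TATA match lay far from the usual place of a TATA box, at -239 to -234. The IL1R2 TATA match lay at -30 to -25 and the kappaB match at -125 to -116. The AP-1 match of IRAK1 lay at -1 to 6. Of all 35116 RefSeq promoters of this length, 11.3% held a kappaB match, 7.71% an AP-1 match, 7.66% a STAT match and 7.33% a TATA match. None of these words is therefore particular to the genes shown. The shares count promoters with at least 1 match and take no account of base composition, which was 83% GC in the IRAK1 window. No STAT match lay in the 3 windows shown. A match describes the letters of the window and no binding was measured.

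IL1A (chromosome 2, 113531502 to 113542070, minus strand, GRCh37) was covered by 359, 323 and 376 reads in the control libraries (replicates 1, 2 and 3, the order used throughout) and by 956, 898 and 889 reads in the ADP-CM libraries. Every treated library lay far above every control library. In TMM-normalized CPM (read counts scaled to the effective library size) this was 21.1 ± 1.69 in control and 50.0 ± 2.42 under ADP-CM (SD, 3 libraries each), a log2 fold change of 1.25 (95% interval 1.13 to 1.36) with an adjusted p-value of 3.52e-28 by edgeR's quasi-likelihood test. In all 13 alternative settings the change stayed between 1.18 and 1.28 on the log2 scale and past the threshold. The exons of IL1A share no bases with another annotated gene.

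IL1B (chromosome 2, 113587328 to 113594393), the neighbour of IL1A on the same strand, was close to the limit of detection. It had 1, 5 and 4 reads in control and 12, 6 and 7 in ADP-CM, so the groups did not overlap in normalized values, although the highest control and the lowest ADP-CM library differed by 1 read. IL1B fell below the filter. In a fit without that filter, where 20.3% of all genes were called, the log2 fold change of IL1B was 1.17, with a 95% interval of 0.0098 to 2.33 and an adjusted p-value of 0.137 by edgeR, which does not pass. Of the reads of both ligands together, IL1B took between 0.278% (95% Wilson interval 0.0491 to 1.56) and 1.52% (0.653 to 3.52) in the control libraries, and between 0.664% (0.305 to 1.44) and 1.24% (0.711 to 2.15) in the ADP-CM libraries. These intervals cover counting error only, since the reads carry no molecular identifiers. IL1 transcripts of these cells were thus almost entirely IL1A in both groups.

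IL18 (chromosome 11, 112013976 to 112034819), the ligand that drives interferon gamma production in lymphocytes, had 99, 105 and 95 reads in control and 158, 161 and 173 in ADP-CM. The groups were well apart, at 5.96 ± 0.354 and 8.97 ± 0.378 CPM (SD, 3 libraries each). The log2 fold change was 0.59 (95% interval 0.37 to 0.82), with an adjusted p-value of 1.89e-05 by edgeR. It lay just above the 1.5-fold limit of 0.58 on the log2 scale, and was below it at 0.54 without control replicate 3 and at 0.55 without ADP-CM replicate 3, while the adjusted p-value stayed at 0.00139 or less in all 13 alternatives.

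IL33 (chromosome 9, 6215786 to 6257983), an alarmin stored in the nucleus, had 5, 6 and 3 reads in control and 11, 6 and 14 in ADP-CM. ADP-CM replicate 2 lay within the control range. IL33 fell below the filter, and without it the log2 fold change was 1.00 (95% interval -0.0046 to 2.01) with an adjusted p-value of 0.144 by edgeR. The RNA of IL1RL1, the receptor of IL33, was not seen in any library. A count of 0 in the 105091761 reads of the 6 libraries allows up to 3 reads, or 0.0285 CPM.

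**Figure D1:**
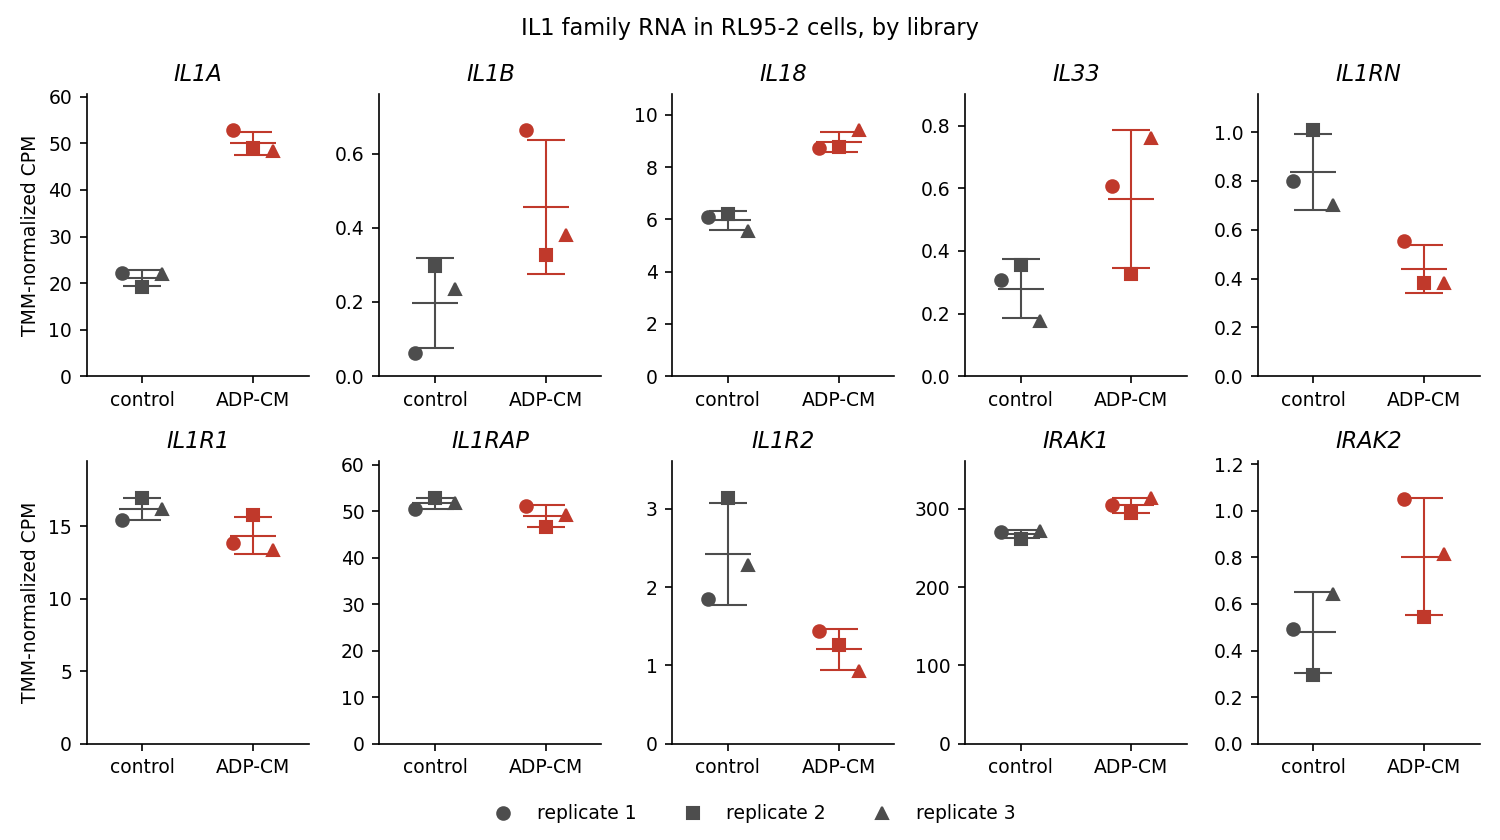
TMM-normalized CPM of the 10 genes in each library (circle, replicate 1; square, replicate 2; triangle, replicate 3), with the mean and SD of the 3 control (grey) and 3 ADP-CM (red) libraries and a separate y axis from 0 for each gene. IL1A rose from 21.1 to 50.0 CPM with no overlap, whereas IL1B, IL33, IL1RN and IRAK2 stayed at about 1 CPM or less in every library.

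IL1RN (chromosome 2, 113856892 to 113891593), the antagonist, had 13, 17 and 12 reads in control and 10, 7 and 7 in ADP-CM. All ADP-CM libraries were lower, at 0.438 ± 0.0989 CPM against 0.837 ± 0.156 in control (SD, 3 libraries each), but the log2 fold change of -0.92 (95% interval -1.68 to -0.17) had an adjusted p-value of 0.0480 by edgeR and did not pass 0.01. In the 11 alternatives that gave it an adjusted p-value it did not pass either, with values of 0.0457 to 0.203. IL1RN was tested at all only because its 3 control libraries lay above the filter's level of 0.568 CPM, and a gene that passes the filter through 1 group alone has to differ in that direction.

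Within a library, the ratio of IL1A to IL1RN reads is free of library size. It was 27.6, 19.0 and 31.3 in control, against 95.6, 128.3 and 127.0 under ADP-CM. The groups did not overlap. On the log2 scale, with 0.5 reads added to each count, the ratio was 4.62 ± 0.366 in control and 6.77 ± 0.224 under ADP-CM (SD, 3 libraries each), a difference of 2.15 or 4.44-fold. The exact two-sided permutation test gave p = 0.1, the smallest value that 3 libraries against 3 can give, so it cannot pass 0.05. The denominator had 7 to 17 reads, and most of the difference in the ratio (1.25 of 2.15) was that of IL1A. The rest was that of IL1RN, which did not pass and was tested only through its control libraries. IL1RN had 7 reads in ADP-CM replicates 2 and 3, under the 10 reads per library planned for a ratio. The ratio is therefore a description only.

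IL1R1 (chromosome 2, 102681004 to 102796334), the signalling receptor, had 250, 286 and 276 reads in control and 251, 289 and 246 in ADP-CM. The groups overlapped, at 16.2 ± 0.764 and 14.3 ± 1.26 CPM (SD, 3 libraries each). The log2 fold change was -0.17 (95% interval -0.33 to -0.02) with an adjusted p-value of 0.0751 by edgeR. IL1RAP (chromosome 3, 190231840 to 190377539), the accessory chain shared with the IL33 and IL36 receptors, had 819, 893 and 884 reads in control and 927, 855 and 906 in ADP-CM. The groups overlapped here too, with a log2 fold change of -0.08 (95% interval -0.17 to 0.01) and an adjusted p-value of 0.185 by edgeR.

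IL1R2 (chromosome 2, 102608422 to 102645006), the decoy receptor, had 30, 53 and 39 reads in control and 26, 23 and 17 in ADP-CM. Each ADP-CM library was below each control library, with the widest control spread due to replicate 2. The level fell from 2.42 ± 0.656 to 1.20 ± 0.259 CPM (SD, 3 libraries each), a log2 fold change of -1.01 (95% interval -1.48 to -0.53) with an adjusted p-value of 0.000467 by edgeR. The call did not hold without control replicate 2 (log2 fold change -0.78, adjusted p-value 0.0241 by edgeR), nor with DESeq2, which called 16.2% of the genes it tested (log2 fold change -1.01, adjusted p-value 0.0151). The direction was the same in all 13 alternatives.
IL1R2 reads made up 10.7%, 15.6% and 12.4% of the reads of both IL1 receptors in control, against 9.39%, 7.37% and 6.46% under ADP-CM. These are shares of reads and not of transcripts, since the canonical transcript has 1462 bases for IL1R2 and 5183 for IL1R1. The lowest control share had a 95% Wilson interval of 7.61 to 14.9 and the highest ADP-CM share one of 6.49 to 13.4, so these neighbouring libraries cannot be told apart by counting error alone. On the log2 scale the IL1R2 to IL1R1 ratio was -2.76 ± 0.312 in control and -3.56 ± 0.290 under ADP-CM (SD, 3 libraries each), a difference of -0.81, with p = 0.1 by the exact two-sided permutation test, again the smallest possible. Leaving out single libraries moved this difference between -0.96 and -0.64.

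**Figure D2:**
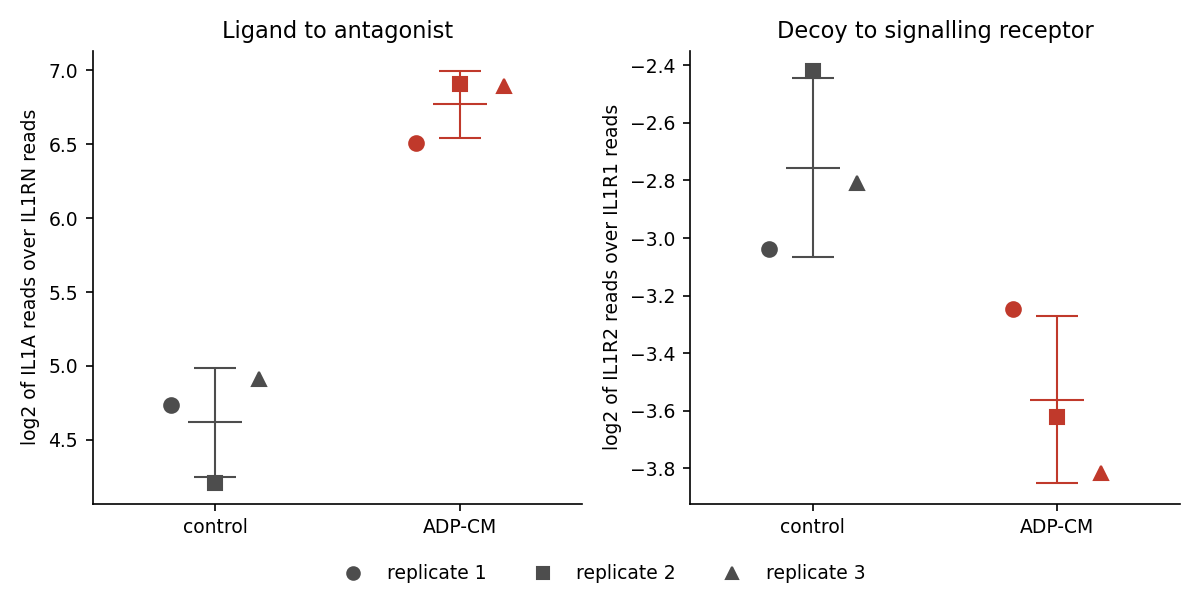
Log2 ratio of IL1A to IL1RN reads (left) and of IL1R2 to IL1R1 reads (right) in each library, with 0.5 reads added to each count, and the mean and SD of 3 libraries per group. The y axes do not start at 0. The ligand to antagonist ratio lay between 4.21 and 4.91 in control and between 6.51 and 6.90 in ADP-CM, and the decoy to receptor ratio was lower in all ADP-CM libraries. IL1RN had only 7 reads in ADP-CM replicates 2 and 3, so the left ratio is a description.

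IRAK1 (chromosome X, 153275957 to 153285353), a kinase recruited by MYD88, was the most abundant of the 10 genes, with 4387, 4423 and 4635 reads in control and 5520, 5407 and 5768 in ADP-CM. After normalization the groups did not overlap, at 267.8 ± 5.09 and 304 ± 9.38 CPM (SD, 3 libraries each). The log2 fold change of 0.19 (95% interval 0.14 to 0.23) was small and passed in the main test (adjusted p-value 4.78e-09 by edgeR) and in all 13 alternatives. IRAK2 (chromosome 3, 10206603 to 10285429), a related kinase of the same complex, had 8, 5 and 11 reads in control and 19, 10 and 15 in ADP-CM, with overlapping normalized values. Its log2 fold change of 0.74 had a 95% interval of -0.03 to 1.51 and an adjusted p-value of 0.127 by edgeR.

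**Figure D3:**
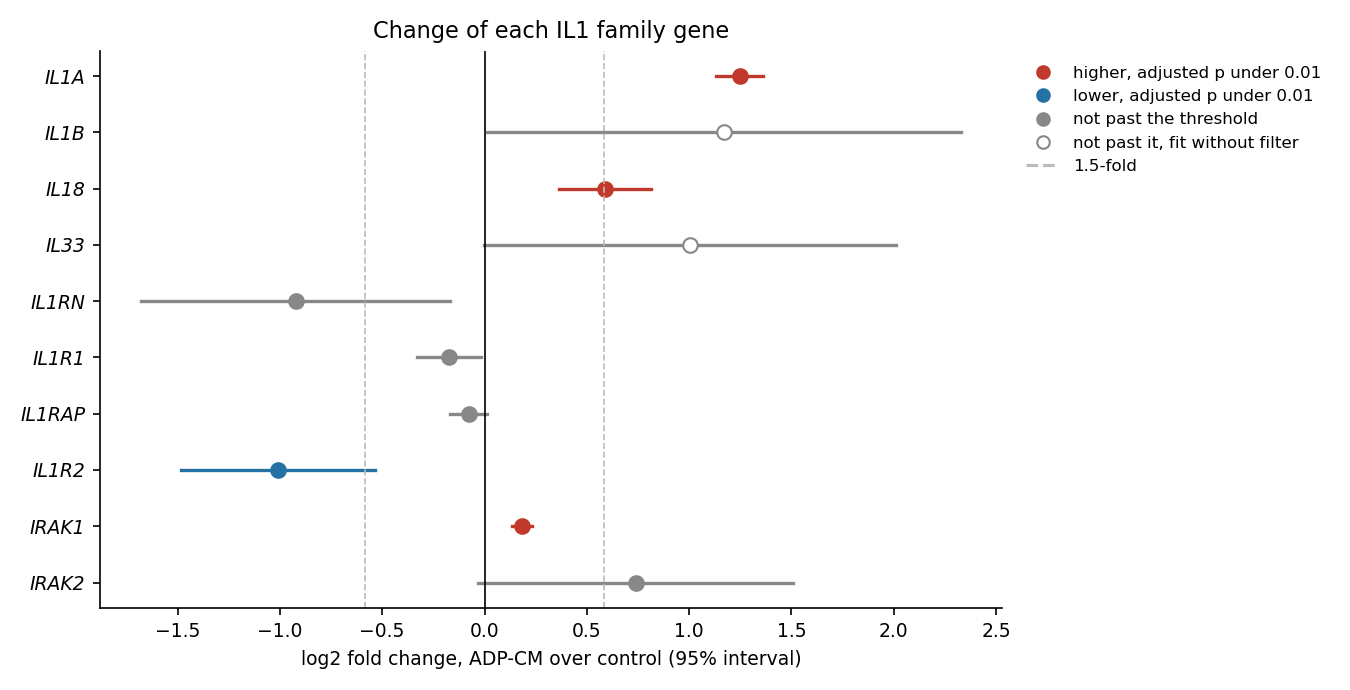
Log2 fold change of each gene in ADP-CM over control, with its 95% interval from edgeR (6 libraries). Red and blue mark genes higher or lower at an adjusted p-value under 0.01, grey genes did not pass, open circles are IL1B and IL33 from the fit without a filter, and dashed lines mark 1.5-fold. The intervals of IL1A and IRAK1 are narrow, while those of the genes with few reads span more than 1 log2 unit.

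Between genes, levels were compared per kilobase of the canonical transcript and library size (RPKM, computed here from the normalized CPM). In control the order was IRAK1 at 74.8 ± 1.42, IL1RAP at 10.9 ± 0.253, IL1A at 10.5 ± 0.839, IL18 at 5.34 ± 0.318, IL1R1 at 3.12 ± 0.148, IL1R2 at 1.66 ± 0.449 and IL1RN at 0.491 ± 0.0914 RPKM (SD, 3 libraries each). The ranges of IL1RAP and IL1A overlapped in control. IRAK2, IL1B and IL33 followed with means of 0.104 to 0.139 RPKM and overlapping ranges. In ADP-CM the level of IL1A was 24.8 ± 1.20 RPKM, above the 10.3 ± 0.485 RPKM of IL1RAP (SD, 3 libraries each) without overlap, and the level of IL1RN at 0.257 ± 0.0580 overlapped those of IL1B and IRAK2. The ligand RNA was therefore above that of its receptor IL1R1 in both groups, and its antagonist and decoy were below it.

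By the likeness of their pattern over the 6 libraries (the root mean square difference of gene-centred log2 CPM), the genes nearest to IL1A included ITGB6, PKD1L2, TGM2 and FAP, with differences of 0.0982 to 0.134. ITGB6, an integrin subunit, rose from 9.38 ± 0.119 to 22.4 ± 0.615 CPM, and TGM2, a transglutaminase, from 20.9 ± 0.326 to 54.7 ± 2.00 CPM (SD, 3 libraries each). The 5 genes nearest to IL1R2 were GGT6, LOC100303728, LOC100507463, ANKRD1 and REEP1, at 0.160 to 0.234. GGT6, a gamma-glutamyltransferase family gene, fell from 3.42 ± 0.355 to 1.73 ± 0.236 CPM (SD, 3 libraries each). The likeness is a description over 6 libraries in 2 groups.

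Of the other ligands of the superfamily, IL36A and IL36B had 0 reads in every library, and 2 of 6 were tested, neither past the threshold. IL36G, an epithelial agonist, had 0.515 ± 0.181 CPM in control and 1.04 ± 0.0619 under ADP-CM (SD, 3 libraries each), with a log2 fold change of 1.00 and an adjusted p-value of 0.0187 by edgeR. IL36RN, the antagonist of the IL36 receptor, had a log2 fold change of -0.35 and an adjusted p-value of 0.0423 by edgeR. At an unadjusted p under 0.05 both would pass, and with DESeq2 neither was called.
Among the 8 other receptors and binding proteins, IL1RL1 and IL1RL2, the specific chains of the IL33 and IL36 receptors, had 0 reads in all 6 libraries. IL18R1, the ligand-binding chain of the IL18 receptor, was expressed at 9.13 ± 0.641 CPM in control and 7.90 ± 1.06 under ADP-CM (SD, 3 libraries each), whereas its partner IL18RAP had 3 reads in all. Of the 3 tested genes 0 were called by edgeR, although IL18BP, which encodes a soluble inhibitor of IL18, had a log2 fold change of 0.51 and an adjusted p-value of 0.0120, and it passed 0.01 in 6 of the 13 alternatives.

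Of 20 listed transducers below the receptor 18 were tested, and 0 rose and 2 fell at an adjusted p-value under 0.01 by edgeR, where 13.5% of all tested genes rose and 13% fell. The list had a median log2 fold change of -0.05 against -0.0023 over all tested genes. The genes that fell were SQSTM1, the scaffold p62, from 783.9 ± 6.32 to 696 ± 7.63 CPM (SD, 3 libraries each), a log2 fold change of -0.17, and IKBKB, a subunit of the kinase that marks I-kappa-B for destruction, with a log2 fold change of -0.13. SQSTM1 was called in all 13 alternatives and IKBKB in 9, its call being lost with DESeq2, without the first or second control library and without the first ADP-CM library. MYD88 and TRAF6, looked up for their role rather than by the naming rule, had log2 fold changes of -0.04 (95% interval -0.11 to 0.03) and -0.08 (-0.22 to 0.06). IRAK3, the inhibitory member of the kinase family, had 2 reads in all.

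Among genes for processing and release of the ligands, 14 of 20 were tested, with 2 higher and 3 lower by edgeR and a median log2 fold change of -0.02. Since 26.5% of all tested genes were called, nothing particular to the list is read from this count. The calpains, proteases that can cleave the IL1 alpha precursor, went opposite ways. CAPN1 fell from 489.9 ± 7.19 to 405.3 ± 10.4 CPM (log2 fold change -0.27), while CAPN2 rose from 509.2 ± 0.837 to 588.6 ± 2.97 CPM (log2 fold change 0.21, SD, 3 libraries each). CAST, the calpain inhibitor calpastatin, fell by 0.16 on the log2 scale and S100A13, a partner of IL1 alpha in its release, by 0.16, while TXNIP rose by 0.12. CAPN1, CAPN2 and CAST were called in all 13 alternatives. TXNIP was called in 12, all but the one without the first control library, and S100A13 in only 6, its call being lost with DESeq2, with plain library sizes and on leaving out any single library except control replicate 2. Several inflammasome genes were not seen: CASP5, NLRC4 and AIM2 had 0 reads in every library, and the adaptor PYCARD had 16 reads in all 6. CASP1 itself was present at 13.01 ± 1.56 CPM in control and 13.1 ± 0.441 under ADP-CM (SD, 3 libraries each), with a 95% interval of -0.16 to 0.18 on the log2 fold change.

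Of 37 genes known to respond to IL1 in epithelial and other cells, 27 were tested, and 16 rose and 4 fell at an adjusted p-value under 0.01 by edgeR. The median log2 fold change was 0.18, against -0.0023 over all tested genes, of which 13.5% rose and 13% fell. These genes also respond to other stimuli, TNF among them, and some had been seen in these data before the list was written, so the count is a description. The 5 with the smallest p-values were CXCL2, CXCL1, IER3, LCN2 and SOD2, with log2 fold changes of 0.82, 0.71, 0.64, 0.31 and 0.43. IER3, a survival gene induced by NF-kB, rose from 70.1 ± 1.73 to 109.6 ± 4.80 CPM, and SOD2, the mitochondrial superoxide dismutase, from 82.4 ± 2.59 to 110.7 ± 1.47 CPM (SD, 3 libraries each). IL8 (now CXCL8), the neutrophil chemokine, had the largest rise among the tested genes of the list, from 2.75 ± 0.574 to 6.47 ± 1.10 CPM, a log2 fold change of 1.23, and it was picked out after its values were seen. The same holds for CCL2, IL32, RELB and NFKBIA, the 4 that fell, with log2 fold changes of -1.02, -0.49, -0.26 and -0.08. NFKBIA was called in 8 of the 13 alternatives, but not with DESeq2 nor without control replicate 1 or 2 or ADP-CM replicate 2 or 3. With DESeq2, 12 genes of the list rose and 3 fell. That method called 16.2% of all the genes it tested, 1027 higher and 951 lower. NFKBIA and RELB are themselves feedback and subunit genes of NF-kB. CXCL5, CXCL6, CSF3, MMP3 and TNFAIP6 had 0 reads in every library.

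**Figure D4:**
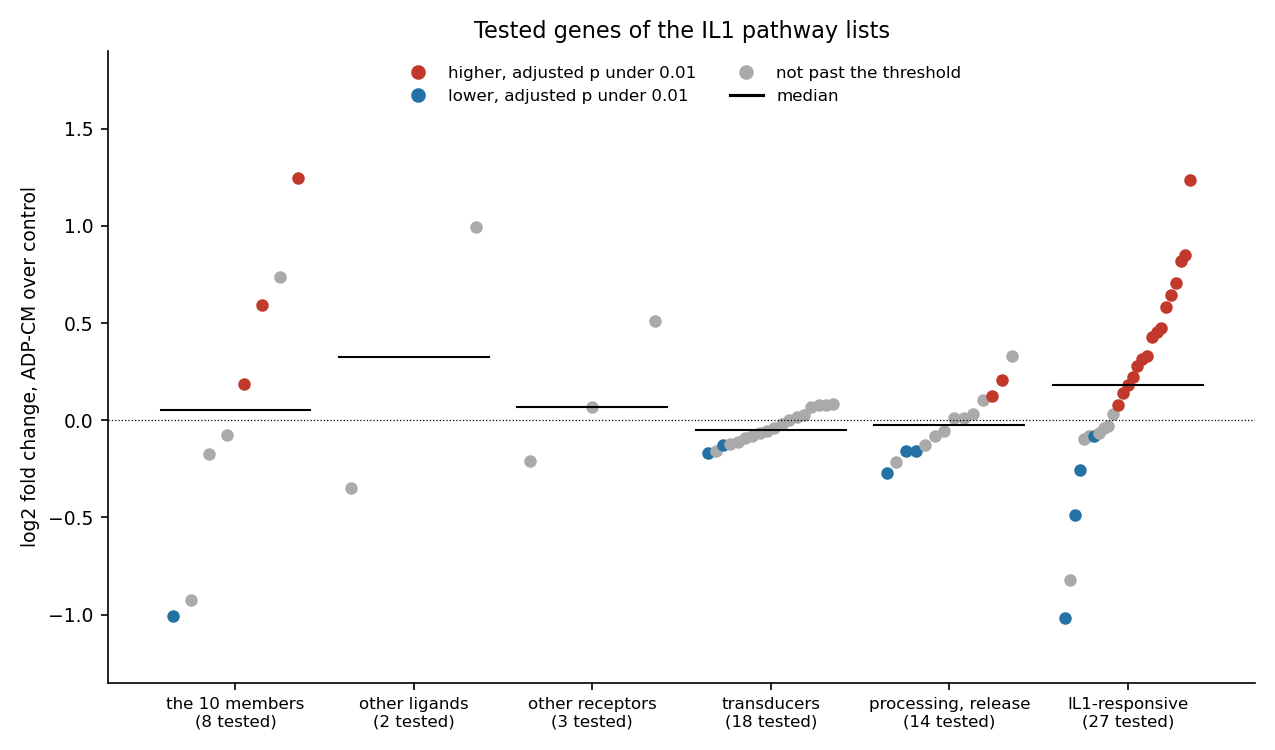
Log2 fold change (ADP-CM over control) of the tested genes in the IL1 family and in the 5 other lists, 1 point per gene, with red and blue for an adjusted p-value under 0.01 (edgeR, 6 libraries) and a black line at the median. The transducers lie close to 0. Of the 27 tested IL1-responsive genes, 16 were higher and 4 lower, where 13.5% of all tested genes were higher and 13% lower. Some of these responsive genes had been seen in these data before the list was written.

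The labelled cell type was checked with marker lists. All 10 epithelial markers were expressed, among them KRT8 and EPCAM, and 2 rose and 6 fell with ADP-CM, where 26.5% of all tested genes were called. KRT19 fell to 0.556 of its control level, ELF3 to 0.691, CDH1 to 0.747 and KRT8 to 0.780, while EPCAM was at 1.00 (adjusted p-value 0.9 by edgeR). The 2 that rose were MUC1, to 2.41 times its control level, and PAX8, to 1.21 times. MUC1 had few reads, at 0.953 ± 0.261 CPM in control and 2.31 ± 1.23 under ADP-CM (SD, 3 libraries each), and was called in 12 of the 13 alternatives. CLDN4 fell in the main test but was called in 7 of the 13 alternatives. These falls accompanied the rise of IL1A, and their part in it was not tested. Of the 10 adipocyte markers 0 reached the filter, with a summed level of 0.616 to 1.24 CPM in control and 0.994 to 1.25 CPM in ADP-CM, and ADIPOQ and LEP had 0 reads. The summed leukocyte markers were 8.54 to 9.86 CPM in control and 11.0 to 13.4 CPM in ADP-CM, and 2 of 10 were tested. Most of this was CD68, which rose by 0.53 on the log2 scale together with IL1A and IL18, while the defining leukocyte marker PTPRC had 3 reads in all libraries together and MPO 0. The summed stromal and endothelial markers were 126.0 to 127.3 CPM in control and 131 to 139.7 CPM in ADP-CM, nearly all of it COL1A1, which rose, and CDH5, and 2 of 10 were tested. In bulk RNA, a change in the share of cells that make a transcript and a change of RNA per cell cannot be told apart.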

How the data were processed

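Stranded poly(A) libraries of 3 control and 3 ADP-CM cultures were read as 50 base single reads. The authors aligned reads to hg19 with TopHat2 and used HTSeq to assign them to NCBI RefSeq genes. The deposited values are raw read counts of each gene, without normalization. Versions and strand setting are not given in the sources used here. Reads on genes numbered 16262614 to 18363033 per library. HTSeq's summary lines (31.4% to 33.0% of reads) name no gene and were left out.

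Counts were compared with edgeR 4.0.16 in R 4.3.3 (TMM, filterByExpr, quasi-likelihood test, Benjamini-Hochberg adjustment over 12663 genes). Calls required an adjusted p-value below 0.01, and the study's 1.5-fold limit was also read. Standard errors and 95% intervals came from the F statistic. Ratios of reads used exact permutation tests. Alternatives were DESeq2 1.42.0 or its size factors, plain library sizes, other filters, the replicate number as a term, each library left out and, chosen after seeing the data, a robust fit. The tests were first tried on simulated data. Replicates differed beyond sampling noise by a chi-square test, so all 6 libraries were kept. That test cannot tell separate cultures from separate libraries of the same culture. The common coefficient of variation between replicates, beyond sampling noise, was 1.67% by edgeR. Positions and lengths came from GENCODE release 44 on GRCh37 (all 10 genes matched), and promoter windows from the RefSeq table of GRCh38.p14, of which 9 of the 10 genes had one that matched GRCh37. The genes and lists were chosen with earlier results of these data known. The text names all 10 genes, up to 5 genes per other list by p-value, genes at 0 reads, and the 5 genes most like IL1A and IL1R2, of which 1 is not reported here. Genes outside this rule are marked or were named for their role.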

Additional observations from a re-analysis of the deposited data

How the results depend on the processing

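All 10 genes kept the direction given in each alternative that gave them an adjusted p-value. These were 13 for IL1A, IL18, IL1R1, IL1R2, IL1RAP and IRAK1, 11 for IL1RN and IRAK2 and 10 for IL1B and IL33. DESeq2 gave no adjusted p-value for these last 4 genes, and the minimum of 10 reads in every library left them out. For IL1B and IL33 the fit without a filter is the main one and was not counted as an alternative. Of the called genes, IL1A, IL18 and IRAK1 stayed past an adjusted p-value of 0.01 in all 13 alternatives. IL1R2 was lost in 2 of 13, as given above. IL1B and IL33 never passed in 10 alternatives without the filter. With DESeq2 the genes called in all numbered 1978 in place of 3357, and past 1.5-fold 178 in place of 288. The cause was not tested. Leaving out single libraries gave 2638 to 3206 and 256 to 288 genes. The IL1A to IL1RN difference of 2.15 ran from 1.94 to 2.30 with single libraries left out and was 2.18 with 0.05 added to each count. The IL1R2 to IL1R1 difference reached an exact p of 0.2 without control replicate 2 or ADP-CM replicate 3, and was -0.82 with 0.05 added.

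With the replicate number as a block, 4 of the 10 genes were called, as without it, of 3502 called in all (297 past 1.5-fold). The exact sign-flip test of the paired ratios gave p = 0.25, the smallest that 3 pairs allow. The numbers share no stated origin. Deviations of same-numbered libraries correlated across genes at 0.0758, 0.00435 and 0.101, and 5 of 6 libraries correlated best with their own number. Deviations were taken from the mean of each group, so the correlations depend on each other and no pairing is read from that count. Depth limits IL1B, IL33, IL1RN and IRAK2, whose 95% intervals span more than 1 log2 unit.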

Other observations

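The genes around the IL1 loci were read after the data had been seen. On chromosome 2, within 150000 bases of the span from IL1A to IL1RN, the count tables held 4 protein-coding genes outside the superfamily. SLC20A1 and CKAP2L, on the IL1A side, had log2 fold changes of 0.04 and 0.05 and adjusted p-values of 0.265 and 0.137 by edgeR. On the IL1RN side PSD4 and PAX8, a lineage factor of the Mullerian tract, rose by log2 fold changes of 0.22 and 0.28 (adjusted p-values 0.0006 and 1.53e-11, same test). IL37, between IL1B and IL36G, had 1 to 7 reads per library. Within the same distance of the receptor genes, MAP4K4 had a log2 fold change of 0.08 and an adjusted p-value of 0.0137 by edgeR. The log2 fold change of IL1A, 1.25, was larger than that of any tested gene in either region.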
